A study of Mus musculus with 20 samples.

Results

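The 7 genes Pcdh15, Cdh23, Myo7a, Ush1c, Ush1g, Clrn1 and Cib2, which are linked to Usher syndrome, were followed in the retinas of mice of 2 ages, control or NACET-treated. They are 7 of the 35006 genes in each count file. The list was chosen on measured values of these same libraries, because Pcdh15 ranked high for NACET in young mice, at rank 3 of 16588 genes by p, with no set limit on that rank. Values of the 7 genes for NACET in young mice are therefore given as a description, without a test. Retinas came from 20 wild-type C57BL/6J mice, 1 retina and 1 library per mouse, and polyA RNA was sequenced. NACET, the ethyl ester of N-acetyl-L-cysteine, enters cells and supplies cysteine; treated mice drank it with their water over 5 days, a daily dose of 50 mg/kg, and control mice received none. The 4 young controls were 119 days old (2 males, 2 females by the labels), and the 6 young NACET mice were 129 days (4 males) or, by their titles, 119 days (2 females); for replicate 6 the batch label gives 129 days. The 4 old controls were 668 days old, and the 6 old NACET mice were 668 days (replicates 1 and 2), 581 days (replicates 3 and 4) or 574 days (replicates 5 and 6); all old mice were labelled male.

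Usher syndrome is an inherited loss of hearing and sight. In the inner ear, PCDH15 and CDH23 join end to end as the tip link that pulls on the mechanotransduction channel of hair cells. In the retina, Usher proteins are placed around the cilium and the synapse of photoreceptors, and mice that lack one of them are deaf while their retina usually degenerates little or late. MYO7A, a motor protein, is also found in the pigment epithelium, where it moves melanosomes and phagosomes. USH1C (harmonin) and USH1G (SANS) are scaffold proteins, CLRN1 (clarin-1) is a small membrane protein, and CIB2 binds calcium and belongs to the transduction complex; its place among Usher genes is disputed.

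In mm9 coordinates, Pcdh15 is on chr10:72562090-74112482, Cdh23 on chr10:59765496-60159238, Myo7a on chr7:105199570-105268034, Ush1c on chr7:53450720-53493873, Ush1g on chr11:115176506-115183355, Clrn1 on chr3:58647950-58689262 and Cib2 on chr9:54392601-54408025. All are annotated as protein-coding, and Pcdh15 alone among them lies on the plus strand. Reads were counted over exons without regard to strand. Exons of Cib2 share 227 bases with exons of the neighbouring gene Sh2d7, while no exon of the other 6 genes overlaps another gene.

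Promoter sequence is shown for Pcdh15, Myo7a and Cib2, the 3 of the 7 genes whose CPM did not overlap between groups in a comparison. Of all genes tested, 0.723% did not overlap for NACET in young and 3.57% for NACET in old mice. For aging in control mice the share was 11.3%, and for age under NACET 4.07%. The windows are the 250 bases before the RefSeq start in GRCm38.p6, an assembly other than that of the counts, and 6 of the 7 genes had an entry. The search covered 4 motifs on both strands, and capitals mark each match: the antioxidant response element core TGACNNNGC (in 10.2% of 32841 RefSeq promoter windows of this length), the core TAATCC of the photoreceptor factor CRX (6.25%), TATAAA (12.4%) and the GC box GGGCGG (32.7%), whose matches may overlap each other.
Pcdh15, chr10:73821617-73821866, plus strand: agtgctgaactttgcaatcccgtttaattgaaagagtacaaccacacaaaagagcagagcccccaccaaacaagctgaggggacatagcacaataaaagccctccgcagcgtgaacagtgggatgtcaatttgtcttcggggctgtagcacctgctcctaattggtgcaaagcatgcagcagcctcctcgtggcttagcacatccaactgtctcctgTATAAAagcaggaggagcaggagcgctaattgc
Myo7a, chr7:98119494-98119743, minus strand: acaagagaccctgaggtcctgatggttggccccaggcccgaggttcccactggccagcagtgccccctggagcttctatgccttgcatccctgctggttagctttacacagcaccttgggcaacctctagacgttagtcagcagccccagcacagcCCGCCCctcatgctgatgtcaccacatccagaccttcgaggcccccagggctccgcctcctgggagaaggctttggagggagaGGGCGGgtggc
Cib2, chr9:54560191-54560440, minus strand: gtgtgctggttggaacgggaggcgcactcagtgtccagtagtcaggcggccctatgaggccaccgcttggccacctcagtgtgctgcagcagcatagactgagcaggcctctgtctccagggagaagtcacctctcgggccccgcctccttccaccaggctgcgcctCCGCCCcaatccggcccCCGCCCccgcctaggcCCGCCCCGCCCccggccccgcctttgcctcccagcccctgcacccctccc
The Pcdh15 window held TATAAA, beginning 33 bases before the start, and no other match. For Myo7a, the more upstream of 2 RefSeq windows is shown, with 2 GC boxes, and Cib2 had 4 GC boxes and 15 CpG dinucleotides against a median of 6 over all windows. Of the 6 genes with a window, Ush1c alone held the antioxidant response element core, beginning 130 bases before its start. These matches are letters in a window and not measured binding.

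Libraries held 17.7 to 31.1 M gene counts (M, 1e+06 counts), and levels are given as CPM, counts per 1e+06 gene counts of a library. The 10 rod marker genes summed to 63590 to 96990 CPM per library, and each was detected in every group. Material of neighbouring tissue stood out in some libraries: lens markers reached 7470 CPM in old NACET replicate 1 against at most 15.6 CPM elsewhere, corneal markers reached 570 CPM in old control replicate 2 and 517 CPM in young NACET replicate 4, and pigment epithelium markers ranged from 40.1 to 298 CPM. Old control replicate 4 is labelled male but had 2470 CPM of Xist. Young control replicate 1 had the lowest level of its group for Pcdh15 and Myo7a, and for the partner genes Gpr98, Whrn and Pdzd7. For Clrn1 and Cib2 it had the highest. Its share of reads outside annotated exons, 14.3%, was the lowest of its group, which reached 19.5%. In whole retina, fewer cells of a type and less RNA per cell cannot be told apart.

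Per length, Pcdh15 was the most abundant of the 7 genes and Ush1c the least. Levels per kilobase of merged exons were 17.5 ± 3.88 CPM per kb (SD, n = 20) for Pcdh15, 7.36 ± 1.00 for Cib2, 4.27 ± 0.55 for Myo7a, 1.26 ± 0.15 for Clrn1 and 0.65 ± 0.10 for Ush1g. Over the 20 libraries the ranges of neighbours in this order did not overlap down to Ush1g, whose lowest value was 0.44 CPM per kb. Cdh23 at 0.077 ± 0.023 CPM per kb and Ush1c at 0.051 ± 0.031 overlapped each other. The RNAs of the tip-link partners were thus at unequal levels, with Pcdh15 at 11.2 to 24.8 and Cdh23 at 0.039 to 0.124 CPM per kb. The plot of levels per kilobase sets the 7 genes beside 3 genes of the USH2 complex (Gpr98, Whrn and Pdzd7), whose proteins link the periciliary membrane of photoreceptors to the cilium. Whrn at 20.5 ± 1.21 and Gpr98 (now Adgrv1) at 17.7 ± 1.96 CPM per kb had ranges that overlapped that of Pcdh15.

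**Figure D1:**
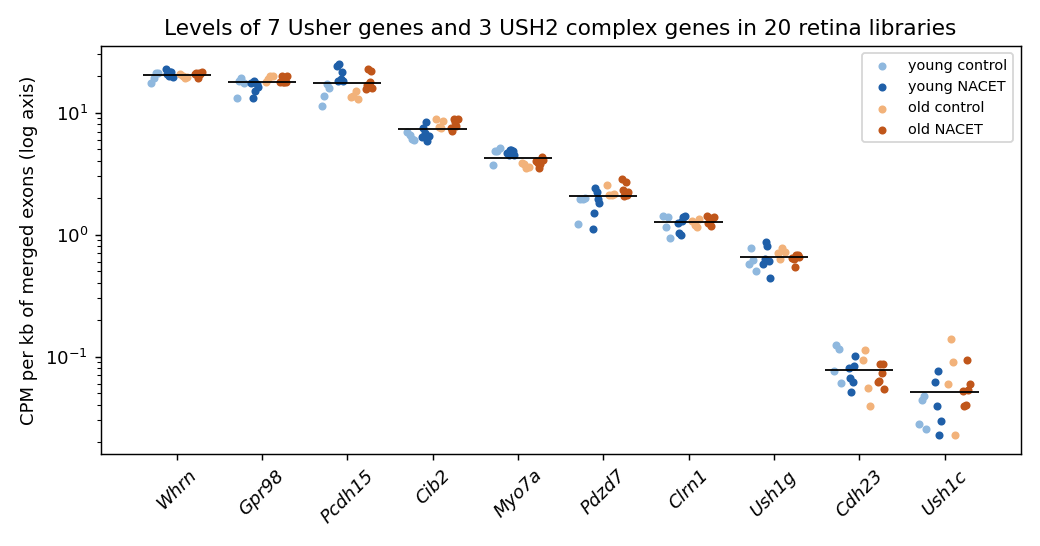
Level of each gene in 20 libraries, in CPM per kb of merged exons on a log axis; points are libraries coloured by group and lines are means over 20 libraries. Pcdh15 lies at 17.5 CPM per kb on average, near Gpr98 at 17.7, and Cdh23 and Ush1c lie lowest; the young NACET library without a Ush1c count is not drawn.

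Pcdh15 was higher in every NACET retina than in every control retina of its age group, young or old. Ages in days differed within these groups. In young controls it measured 246, 301, 375 and 347 CPM (replicates 1 to 4), and in young NACET libraries 527, 401, 544, 414, 467 and 401 CPM (replicates 1 to 6), with a lowest of 401, a median of 441 and a highest of 544. The log2 change was 0.52 (SE 0.12), in the contrast whose rank by p chose the list. It was 0.77 in labelled males only, where the controls were replicates 1 and 2, the 2 lowest of their group. The change was 0.46 with the title age as a covariate and 0.44 without young control replicate 1, the lowest library. Among 16588 genes, 0.723% had CPM that did not overlap between these groups, a share from which nothing is read here because the same contrast chose the list.

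NACET in old mice shares no library with the contrast that chose the list, so all 6 genes above the count filter were tested there. Old controls had 294, 298, 327 and 284 CPM of Pcdh15, and old NACET retinas 342, 372, 501, 393, 484 and 349 CPM, with a lowest of 342, a median of 383 and a highest of 501. All 6 NACET libraries lay above the highest control, and group means were 300.4 ± 18.6 CPM (SD, n = 4) and 407 ± 68.9 CPM (n = 6). The log2 change of 0.43 (SE 0.11, 1.35-fold) had an adjusted p of 0.0857 by the quasi-likelihood test of edgeR over 16562 genes and was not called. In this comparison the groups did not overlap in CPM for 1 of the 6 Usher genes, against 3.57% of all genes tested.

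The old NACET mice differed in age as well as in treatment from the controls. The 2 NACET mice of the age of the controls, 668 days, had 342 and 372 CPM, above all 4 controls. With these alone the log2 change of Pcdh15 was 0.24 with an edgeR adjusted p of 0.545, and with cohort as a covariate 0.24 with an adjusted p of 0.570. The 4 younger NACET mice held 349 to 501 CPM. Over 21 alternatives the edgeR or DESeq2 adjusted p of Pcdh15 ranged from 0.0503, without old NACET replicate 1, the library with lens markers, to 0.570, so that it was called in 0 of them.

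None of the 6 Usher genes passed the test for NACET in old mice (edgeR, adjusted p under 0.05), while 0.543% of all genes were called. Pcdh15 was the 1 gene of the 6 with an unadjusted p under 0.05, against 14.4% of all genes, and DESeq2 also called 0. Myo7a had group means of 31.5 ± 1.34 and 33.6 ± 2.51 CPM with a log2 change of 0.083 (SE 0.055, adjusted p = 0.516). The scaffold gene Ush1g stood at 2.34 ± 0.20 and 2.11 ± 0.17 CPM (log2 change -0.15, SE 0.12), Clrn1 at 4.81 ± 0.29 and 5.12 ± 0.37 CPM (0.080, SE 0.093) and Cib2 at 11.6 ± 0.93 and 11.5 ± 1.06 CPM (-0.011, SE 0.084). Cdh23, at 1.27 ± 0.57 and 1.20 ± 0.23 CPM, had a log2 change of -0.11 (SE 0.26). Its 95% interval, from -0.63 to 0.40, overlapped that of Pcdh15, from 0.22 to 0.64. The median log2 change of the 6 genes was 0.035, against 0.0021 over all genes tested.

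**Figure D2:**
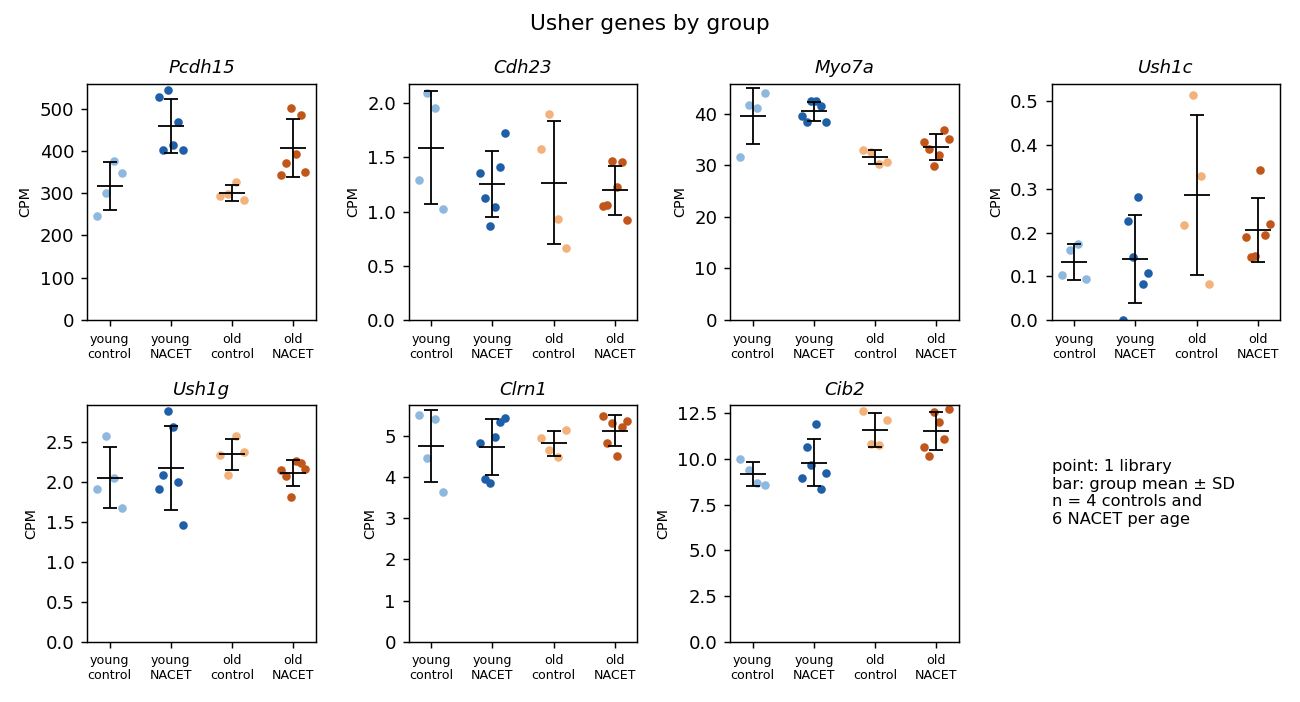
CPM of each of the 7 Usher genes by group; points are single libraries, and bars give the mean and SD of 4 control or 6 NACET libraries per age, on linear axes from 0. Mean Pcdh15 is 459 CPM in young NACET against 317 CPM in young control libraries, the contrast that chose the list. In old mice it is 407 against 300.4 CPM, a difference that was not called. Myo7a is lower in every old NACET than in every young NACET library.

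The difference between ages in the NACET effect was estimated over all 20 libraries. For Pcdh15 it was -0.098 on the log2 scale (old minus young, SE 0.18), with a 95% interval from -0.44 to 0.25. The estimates of the other 5 genes ran from -0.22 (Ush1g, SE 0.22) to 0.25 (Cdh23, SE 0.38). These estimates contain the contrast that chose the list and carry no test. In young mice, the log2 changes of the other 5 genes were -0.36 (SE 0.25) for Cdh23, 0.020 (SE 0.075) for Myo7a, 0.065 (SE 0.19) for Ush1g, -0.016 (SE 0.16) for Clrn1 and 0.082 (SE 0.10) for Cib2.

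Myo7a was lower in old than in young retinas under NACET. Young NACET libraries held 39.4, 38.4, 42.3, 42.4, 41.5 and 38.3 CPM (lowest 38.3, median 40.5, highest 42.4), and old NACET libraries 34.5, 33.2, 29.8, 32.0, 36.9 and 35.2 CPM (lowest 29.8, median 33.8, highest 36.9). Every old library lay below every young one. Means were 40.4 ± 1.91 and 33.6 ± 2.51 CPM (n = 6 each), and Myo7a fell by 0.32 on the log2 scale (SE 0.048, edgeR adjusted p = 0.000918). It was the 1 called of 5 Usher genes tested in this comparison, against 4.88% of all 16276 genes, and the 1 whose groups did not overlap, against 4.07% of all genes.

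The fall of Myo7a passed the test under all 21 alternatives, with log2 changes from -0.35 to -0.29 and edgeR or DESeq2 adjusted p from 3.93e-07 to 0.00724. In labelled males only it was -0.33 with an edgeR adjusted p of 0.00398. The 10 pigment epithelium markers summed to 106 to 210 CPM in young NACET and 40.1 to 136 CPM in old NACET libraries, and the rod markers to 76870 to 95090 and 63590 to 76380 CPM. None of these markers was at 0 in every library of a group, and their part in the result was not tested.

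Of the other 4 genes tested in this comparison, Cib2 had young NACET values of 8.95, 10.7, 9.66, 11.9, 8.37 and 9.21 CPM and old NACET values of 10.6, 10.2, 12.6, 12.0, 11.1 and 12.7 CPM. The groups overlapped, and the log2 change of 0.19 (SE 0.087) had an edgeR adjusted p of 0.219. Log2 changes of Cdh23, Ush1g and Clrn1 lay between -0.12 and 0.062, with adjusted p of 0.772 to 0.791. Pcdh15, whose young NACET libraries had served to choose it, had means of 459 ± 64.2 and 407 ± 68.9 CPM and a log2 change of -0.22 (SE 0.11), given without a test.

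In control mice, mean Myo7a was also lower and mean Cib2 higher at old age, but no Usher gene passed the test. This comparison shares its young controls with the contrast that chose the list and its old controls with NACET in old mice. Myo7a measured 31.6, 41.7, 41.0 and 44.0 CPM in young and 32.9, 32.5, 30.2 and 30.5 CPM in old controls. The groups overlapped through young control replicate 1 alone, at 31.6 CPM. The log2 change was -0.37 (SE 0.087), with an edgeR adjusted p of 0.0592.

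Without young control replicate 1, the log2 change of Myo7a in control mice was -0.46 with an edgeR adjusted p of 0.00327. It was also called by DESeq2 (adjusted p = 0.00356), by a robust fit (0.0446) and in a fit of all 4 groups (0.00392). An additive edgeR model of age and NACET over 20 libraries called it too (-0.34, adjusted p = 1.58e-05). That model takes a common age effect over control and NACET mice, so it is not a test of control mice alone. Myo7a was not called in labelled males only (-0.27, edgeR adjusted p = 0.326) or in libraries under 1 CPM of Xist only (-0.26, adjusted p = 0.482). Both are smaller sets, and their only young libraries are young control replicates 1 and 2. Pigment epithelium markers summed to 50.1 to 298 CPM in young and 111 to 262 CPM in old controls, and their part was not tested.

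Cib2 measured 10.0, 9.38, 8.71 and 8.56 CPM in young controls and 12.6, 10.8, 10.8 and 12.1 CPM in old controls. The groups did not overlap, but the log2 change of 0.29 (SE 0.095) had an edgeR adjusted p of 0.165. Cib2 was the 1 of 6 Usher genes with groups apart in this comparison, against 11.3% of all genes, and 0 of the 5 tested were called by edgeR, against 1.42% of 16484 genes, with 2 of 5 at an unadjusted p under 0.05, against 16.3% of all genes. In the additive model of 20 libraries, which also holds the NACET mice, Cib2 was called (0.23, edgeR adjusted p = 0.0184). That model called 2173 of 16993 genes. Cib2 was not called in labelled males only (0.20, edgeR adjusted p = 0.504) or in libraries under 1 CPM of Xist only (0.17, adjusted p = 0.697). Pcdh15 had means of 317 ± 56.5 and 300.4 ± 18.6 CPM in young and old controls (log2 change -0.13, SE 0.11), and 0.085 in labelled males only; this is given without a test, since its young controls had served to choose it.

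**Figure D3:**
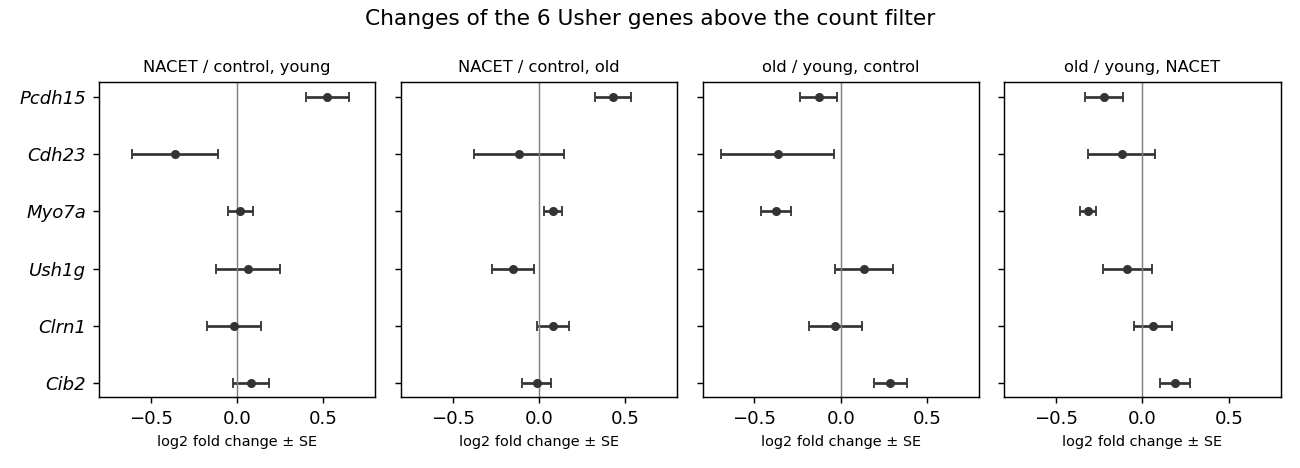
Log2 fold change and SE of the 6 Usher genes above the count filter in 4 comparisons, each named over its panel; the line marks no change. Pcdh15 is at 0.52 for NACET in young mice, the contrast that chose the list, and at 0.43, not called, for NACET in old mice. For old against young mice, Myo7a is at -0.37 in controls, not called, and at -0.32 under NACET.

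Cdh23 and Ush1c set the lower limit of what could be measured. Cdh23 passed the filter with 16 to 59 reads per library and ranged from 0.66 to 2.09 CPM, with the lowest and the highest value both in control mice. Ush1c failed it with 0 to 16 reads per library. It had 2 to 4 reads in young controls, 0 to 7 in young NACET, 2 to 16 in old controls and 3 to 7 in old NACET libraries. The library with 0 reads, young NACET replicate 1, allows a level of up to 0.127 CPM (3 counts, counting error only). Ush1c was therefore in none of the edgeR fits above, and no fold change is given for it. Ush1g, with 27 to 67 reads per library, measured 2.05 ± 0.38 CPM in young controls and 2.17 ± 0.53 CPM in young NACET, and Clrn1, with 70 to 145 reads, 4.75 ± 0.88 and 4.73 ± 0.68 CPM.

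The USH2 complex and other partner genes were read in the same comparisons. None of the 3 USH2 complex genes was called in the 4 comparisons by edgeR; an unadjusted p under 0.05 was found for 1 of them in old against young NACET mice (21.1% of all genes) and for 0 in the others. Gpr98, the giant adhesion receptor, stood at 476 ± 23.7 CPM in old controls and 461 ± 24.8 CPM in old NACET mice (log2 change -0.055, SE 0.058). Whrn (whirlin), a scaffold, had 146 ± 4.25 and 153 ± 6.04 CPM (0.059, SE 0.039). Pdzd7, a scaffold whose exons share 199 bases with Lzts2, had 9.16 ± 0.86 and 9.80 ± 1.32 CPM (0.093, SE 0.098).

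For age, the 3 genes had log2 changes in control mice from -0.038 (Whrn) to 0.26 (Pdzd7, SE 0.14, adjusted p = 0.387) and under NACET from -0.067 (Whrn) to 0.33 (Pdzd7, SE 0.14, adjusted p = 0.190). Of 4 further Usher genes (Hars, Arsg, Cep250 and Abhd12), 0 were called by edgeR in any comparison, and 2, 1, 2 and 0 of them had an unadjusted p under 0.05 for NACET in old mice, aging in controls, age under NACET and NACET in young mice, against 14.4%, 16.3%, 21.1% and 4.36% of all genes. Of 16 genes of mechanotransduction and the hair bundle, 9 could be tested for NACET in old mice and 0 were called (0.543% of all genes), with 1 at an unadjusted p under 0.05 (14.4%). In aging controls 1 of 9 was called (1.42% of all genes), with 2 of 9 at an unadjusted p under 0.05 (16.3%), and for age under NACET 0 of 8 by edgeR (4.88%), with 2 of 8 at an unadjusted p under 0.05 (21.1%). In aging controls the groups did not overlap in CPM for 1 of 3 USH2 complex genes (Pdzd7), against 11.3% of all genes. The same held for 2 of the 9 genes of mechanotransduction and the hair bundle. The 4 genes of the microvillar adhesion complex did not pass the filter.

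The called gene was Myo15 (myosin XV, the motor that carries cargo to the tips of stereocilia). It had 0.98, 1.73, 1.70 and 1.40 CPM in young controls and 3.16, 3.48, 3.01 and 3.40 CPM in old controls. The groups did not overlap (11.3% of all genes), at 19 to 43 reads per library in young and 55 to 108 in old controls. Myo15 rose by 1.11 on the log2 scale (SE 0.18, edgeR adjusted p = 0.0101). Myo15 lost its call in labelled males only (1.20, edgeR adjusted p = 0.0746) and in libraries under 1 CPM of Xist only (1.17, adjusted p = 0.145). In these smaller sets young control replicates 1 and 2 were the only young libraries, and Myo15 changed by no less than over all controls. Under NACET it had 1.64 ± 0.31 CPM in young and 2.46 ± 0.61 CPM in old mice, and the change of 0.53 (SE 0.19) had an adjusted p of 0.106, though 0.0452 without old NACET replicate 4.

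Over the 20 libraries, Arr3 (cone arrestin) followed Pcdh15 most closely among 16992 genes, with a Pearson r of 0.90 of log2 CPM, followed by Birc5 (0.85), a gene with 4 to 23 reads per library, and Dlg1 (0.85). Libraries share depth, group and dissection, so these are descriptions. Arr3 measured 471 ± 92.7 CPM in young controls, 619.9 ± 60.7 in young NACET, 427 ± 55.9 in old controls and 570.1 ± 41.7 CPM in old NACET mice. Young NACET values began at 545 and young controls reached 566 CPM, and old NACET began at 508 and old controls reached 511 CPM, so for Arr3 the groups overlapped at both ages. The 8 cone markers as a list summed to 1816 to 2013 CPM in young control, 1885 to 2258 in young NACET, 1730 to 1977 in old control and 1648 to 1945 CPM in old NACET libraries.

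**Figure D4:**
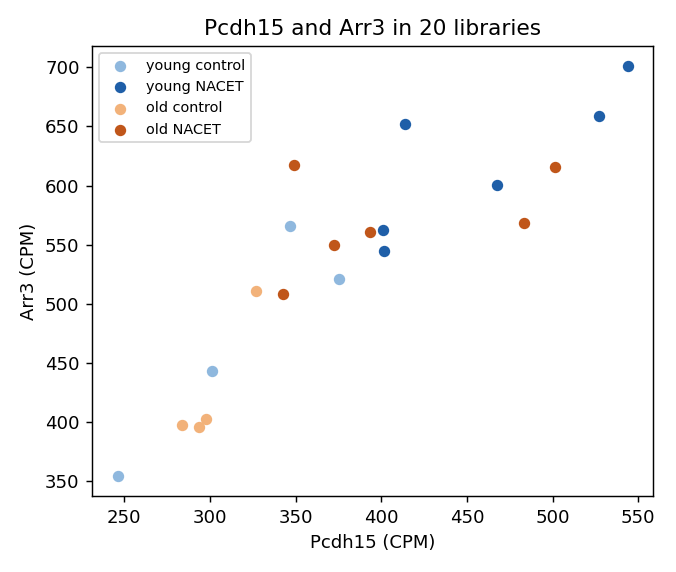
Arr3 against Pcdh15 in CPM on linear axes that do not start at 0; each point is 1 of 20 libraries, coloured by group. Both genes were lowest in young control replicate 1 (246 CPM of Pcdh15, 355 CPM of Arr3) and highest in young NACET replicate 3 (544 and 701 CPM).

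For Myo7a the closest genes were Plch2 (0.91), Camta2 (0.91) and Kirrel (0.90), and for Cib2 Rnd2 (0.87), Sumo3 (0.84) and Kazald1 (0.83). Ush1g came with Tspan33 (0.81), Tbrg4 (0.77) and Dtx3l (0.76). At the lower counts of Clrn1 and Cdh23 the highest values were 0.67 (Mpv17l), 0.65 (Gm13705) and 0.65 (Cdc26) for Clrn1, and 0.64 (Cbfa2t2), 0.62 (Gm6999) and 0.62 (Pcdhb13) for Cdh23. No member of the Usher list was among the 3 closest genes of another. With 16992 genes compared for each, 3 places are too few to tell whether members vary together.

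No pair of Usher genes passed a test of varying together among mice of a group. With group means removed, 0 of 21 pairs passed a permutation test (100000 permutations within groups, two-sided) after adjustment, and 1 had an unadjusted p under 0.05. That pair was Myo7a and Cib2, with a Pearson r of -0.52 (permutation p = 0.0212, adjusted p = 0.445) and a Spearman rho of -0.49 (permutation p = 0.0394, adjusted p = 0.728) over 20 libraries. Without the 2 libraries farthest from the median of Myo7a its r was -0.47 (permutation p = 0.0522). Pcdh15 and its tip-link partner Cdh23 had an r of 0.19 (permutation p = 0.405, adjusted p = 0.773) and a rho of 0.19 (permutation p = 0.412, adjusted p = 0.809), and r was 0.11 without the 2 libraries farthest from the median of Pcdh15.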

How the data were processed

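The deposited values are raw read counts per gene. As the labels and the study's methods state, the authors prepared TruSeq polyA libraries, sequenced single ends, aligned reads to mm9 with TopHat2 2.1.0 and counted them over exons with HTSeq 0.11.2 without strand; the annotation is not given in the sources used here. A row that names no gene, at most 0.00218% of counts, was left out. The members and all gene lists were chosen with earlier results of these data known.

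Groups were tested pairwise with edgeR 4.0.16 in R 4.3.3 (TMM, default expression filter, quasi-likelihood test, Benjamini-Hochberg over all genes tested), and genes were called at an adjusted p under 0.05. DESeq2 1.42.0, which the study used, was an alternative. Pcdh15 was not tested for a difference between groups where young libraries that served to choose it entered the comparison. The correlation tests of pairs did include it, over all 20 libraries with group means removed. The interaction of age and NACET was estimated on 20 libraries. Correlations used log2 CPM with a prior count of 1. Named genes were the 7 members, 3 USH2 complex genes (another gene of that list is not reported here), genes of 4 fixed partner lists that were called, and the 3 genes most like each member above the filter over 20 libraries; Hars, Arsg, Cep250 and Abhd12 are named as a list, and Lzts2 and Sh2d7 for exon overlap. Gene positions and merged exon lengths came from GENCODE for mm9, counted from 1, and promoter windows from RefSeq for GRCm38.p6. Scripts were tested on simulated data. Each library is 1 mouse. Gene counts of 17.7 to 31.1 M put 3 counts at 0.0965 to 0.169 CPM.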

Additional observations from a re-analysis of the deposited data

How the results depend on the processing

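For NACET in old mice and for age under NACET the number of Usher genes called, 0 and 1, was the same under each alternative. For aging in control mice it was 0, but 1 with DESeq2, with a robust fit and with a fit of all 4 groups. It was 0 to 1 when libraries were left out in turn (1 without young control replicate 1), and 2 in the additive model of 20 libraries, which also holds the NACET mice. In DESeq2, robust fit and all 4 groups the called gene was Myo7a. These settings also called more of all genes than the main fit, which called 234 of 16484. DESeq2 called 721 of 25098, the robust fit 286 of 16484 and the fit of all 4 groups 461 of 16993. Without young control replicate 1 it was 414 of 16757, and in the additive model 2173 of 16993. The pairs of members past the correlation threshold stayed at 0 on CPM without the log and without the 2 libraries farthest from the median.

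Signs turned for small, uncalled log2 changes. In NACET in old mice, Cdh23 lay between -0.33 and 0.21 when libraries were left out (0.21 without old control replicate 2) and was 0.25 without libraries with 100 CPM or more of corneal or lens markers, and Cib2 lay between -0.043 and 0.022 when libraries were left out, at 0.011 and 0.021 without old control replicates 1 and 4 and 0.014, 0.022 and 0.0020 without old NACET replicates 1, 2 and 5. In aging, Pcdh15 (not tested there) became 0.085 and Whrn 0.068 in labelled males, Pcdh15 0.10, Whrn 0.071 and Ush1g -0.014 in libraries under 1 CPM of Xist, and Clrn1, between -0.14 and 0.061 when libraries were left out, was 0.061 and 0.040 without young control replicates 1 and 3 and 0.024 in the additive model. Under NACET with age, Cdh23 became 0.066 in labelled males. Of 946 log2 changes under 36 alternatives, 918 kept their direction and side of the threshold or moved by less than the SD; the cause of the others was not tested.

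Genes called over all genes varied more, from 0 to 375 for NACET in old mice, 69 to 2173 for aging and 422 to 1326 for age under NACET, so the shares of all genes called are those of 1 setting.

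Replicate numbers name samples and do not pair mice. The correlation of deviations between same-numbered libraries ranged from -0.16 to 0.12, and a library was closest to its own number in 2 of 18 pairs. With a replicate block, Pcdh15 in old NACET mice had a log2 change of 0.40 (edgeR adjusted p = 0.0687), against 0.42 (0.164) on the same libraries with no block term; Myo7a was -0.32 (0.00724) for age under NACET and -0.37 (0.106) in aging, and the block changed no call of an Usher gene. The fits on libraries low in corneal and lens markers, and those on shared numbers with no block term, were chosen after seeing the data.

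Depth was lowest for Ush1c, at 0 to 16 reads per library and under the filter, and for Cdh23, at 16 to 59 reads.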
